A study of Mus musculus with 6 samples.

Results

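The genes described here encode the enzymes and proteins that build the dense-core secretory granule and process prohormones inside it: Pcsk1, Pcsk2, Cpe, Chga, Chgb, Scg2, Scg3, Scg5, Ptprn and Ptprn2. Members were taken as all probe sets whose platform annotation gives one of these symbols alone, which found 11 of the 45037 probe sets tested, for 9 of the 10 genes (of 18193 genes in all). Pcsk2 was not analysed here. Expression was measured in MIN6, a line grown from a mouse insulinoma that makes and secretes insulin as beta cells do. In the first group of 3 arrays the cells had received an siRNA against Hlxb9, the homeobox transcription factor gene also called Mnx1, and in the second group of 3 arrays a scrambled negative control siRNA. Both siRNAs were delivered by nucleofection together with a lipid reagent, and RNA was taken 72 hours later with no other agent named. The transfections were independent of each other. Of those with Hlxb9 siRNA, only RNA from transfections with a western blot loss of Hlxb9 of over 75% went onto arrays, which selects for the protein effect. The labels call the cells sorted and name no gate. The question addressed is which transcripts change in level after loss of Hlxb9.

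Peptide hormones such as insulin are made as longer precursors. In the maturing granule, prohormone convertases cut them after pairs of basic residues, and carboxypeptidase E then removes the basic residues left at the new ends. Granins are acidic proteins that aggregate with the cargo as the granule forms and are themselves cut into peptides, while a few proteins of the granule membrane link its content to storage and release. These genes are characteristic of endocrine cells and neurons.

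The stretches of promoter below are shown because a cyclic AMP response element, the binding site of CREB family factors, is a feature that several members share and that the choice of members did not use. They run from 110 to 11 bases before an annotated transcription start, 5′ to 3′ on the gene's strand, and come from RefSeq, build GRCm38.p6. Capitals mark the element or, in Chga, the run of 8 bases that begins with its first 6 letters.
Scg2, chr1:79440037-79440136, minus strand: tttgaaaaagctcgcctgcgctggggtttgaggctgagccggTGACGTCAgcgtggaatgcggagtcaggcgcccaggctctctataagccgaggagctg
Chgb, chr2:132781532-132781631, plus strand: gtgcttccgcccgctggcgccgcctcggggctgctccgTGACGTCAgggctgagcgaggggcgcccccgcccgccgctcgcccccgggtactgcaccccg
Pcsk1, chr13:75089747-75089846, plus strand: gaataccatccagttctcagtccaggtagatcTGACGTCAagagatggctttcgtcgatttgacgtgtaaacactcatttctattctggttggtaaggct
Chga, chr12:102554831-102554930, plus strand: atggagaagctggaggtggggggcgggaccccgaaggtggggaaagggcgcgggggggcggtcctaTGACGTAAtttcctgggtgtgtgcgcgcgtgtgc

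The promoter table held 9 of the 10 members, all but Cpe and with Pcsk2 included, in 10 windows, each from 250 bases before to 50 bases after a start. The whole element, TGACGTCA searched on both strands, was in the windows of 3 of the 9 genes with a promoter, Scg2, Chgb and Pcsk1, and in 1.79% of all 32851 windows. It began 68 bases before the start in Scg2, 72 in Chgb and 78 in Pcsk1. The annotated Pcsk1 gene begins at base 75089420, upstream of the stretch shown, so the Pcsk1 start used here lies inside the gene. Its first 6 letters, TGACGT, which the whole element contains on both strands, were in 5 of the 9, with Chga (44 bases before the start) and Scg5 added, and in 7.51% of all windows. The letters TAATTA, a core that many homeodomain proteins bind, were in none of the 9 genes' windows and in 5.29% of all windows. The letters TATAAA were in 1 of the 9, Chga, where they lay after the start and not before it, and in 13.6% of all windows. Both siRNA groups share these sequences, so a match describes a promoter and says nothing of a difference between the groups.

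Values are log2 RMA signals, which are normalized brightness and not molecules per cell, so the signals of different genes do not give their relative amounts. In RNA taken from many cells at once, fewer cells of a type and less RNA per cell cannot be told apart. Each array's highest correlation with another array was 0.997, apart from control replicate 3, whose highest correlation was 0.991. Its Gapdh control signal was 2.13 log2 stronger at the 3′ than at the 5′ end of the transcript, where the remaining 5 arrays had 0.65 to 0.78, and each member's difference is also given without it. Mnx1 averaged 7.41 ± 0.13 log2 after Hlxb9 siRNA and 7.70 ± 0.17 after control siRNA (SD, n = 3 each), a difference of -0.29 ± 0.13 log2 (SE) that did not pass the test (limma adjusted p = 0.659) and was -0.25 log2 without control replicate 3. Its exact two-sided permutation p was 0.2, where 3 against 3 arrays can give no less than 0.1. 

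None of the 11 member probe sets passed the test across all probe sets, in which 0.0% were called (limma, Benjamini-Hochberg adjusted p under 0.05). At an unadjusted p under 0.05 the members' count was also 0 of 11, against 7.62% of all probe sets. With limma array weights 0 of 11 passed the adjusted threshold, against 2.51% of all probe sets. With the brightest probe set read for each gene, 5 of the 9 genes had a higher mean and 4 a lower mean after Hlxb9 siRNA. The median difference over the 9 was 0.018 log2, against 0.0023 over all genes, and 0.00025 without control replicate 3. Differences ran from -0.27 log2 for Cpe to 0.13 log2 for Scg5. The signals were bright, above at least 95.3% of probe sets in every case, and RMA signals near the top of the range can understate a difference.

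**Figure D1:**
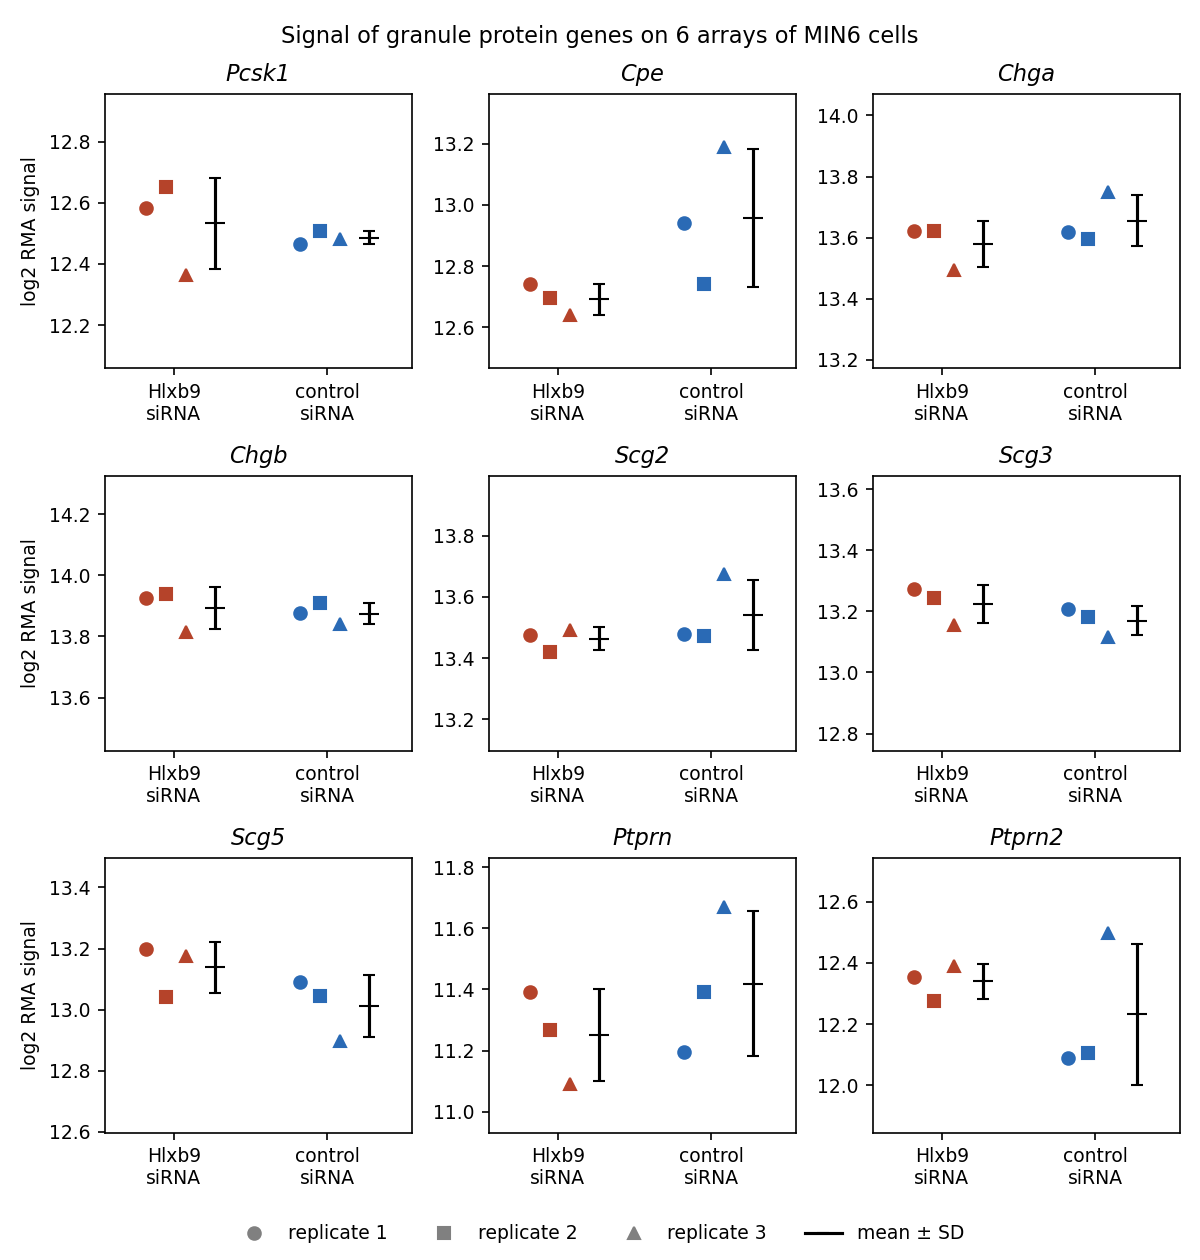
Log2 RMA signal (y axis, the same span in each panel) of 9 granule protein genes on 3 Hlxb9 siRNA arrays (left, red) and 3 control siRNA arrays (right, blue), with symbols for replicate numbers and mean ± SD beside the points. The groups overlap for 8 genes, and for Cpe all 3 Hlxb9 siRNA values lie just below the lowest control value.

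The first step of processing belongs to the convertases. Pcsk1, encoding the convertase PC1/3 that makes the early cuts in proinsulin, read 12.58, 12.65 and 12.37 log2 after Hlxb9 siRNA, against 12.47, 12.51 and 12.48 after control siRNA. The Hlxb9 siRNA arrays held both the highest and the lowest of the 6 values, and the controls lay between them. The mean was 12.53 ± 0.15 after Hlxb9 siRNA and 12.49 ± 0.021 after control siRNA (SD, n = 3 each), and the difference of 0.047 ± 0.11 log2 (SE) did not pass (limma adjusted p = 0.925). Its 95% interval, from -0.21 to 0.30, corresponds to 0.865- to 1.23-fold. The difference was 0.046 log2 with control replicate 3 left out.

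Scg5 encodes 7B2, the chaperone that PC2, the product of Pcsk2, needs to mature. It read 13.20, 13.04 and 13.18 log2 after Hlxb9 siRNA, against 13.09, 13.05 and 12.90 after control siRNA. Its lowest value belonged to control replicate 3, and Hlxb9 siRNA replicate 2 lay level with control replicate 2, so the groups overlapped. The difference, 0.13 ± 0.11 log2 (SE), was the most positive of the 9 genes and did not pass (limma adjusted p = 0.772). Without control replicate 3 it was 0.070 log2.

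Cpe, encoding carboxypeptidase E, was the only member whose groups did not overlap. Its brighter probe set read 12.74, 12.69 and 12.64 log2 after Hlxb9 siRNA, against 12.94, 12.74 and 13.19 after control siRNA. Hlxb9 siRNA replicate 1 lay only 0.002 log2 below control replicate 2, so the separation was narrow, and 7.29% of all probe sets had all 3 Hlxb9 siRNA values below all controls. The difference was -0.27 ± 0.13 log2 (SE), 0.832-fold, and did not pass (limma adjusted p = 0.667). Control replicate 3 stood 0.44 log2 above the mean of the other 5 arrays, and without it the difference was -0.15 ± 0.10 log2.

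The dimmer Cpe probe set, below the median signal of the array, read 3.62, 3.61 and 3.88 log2 after Hlxb9 siRNA, against 3.88, 3.71 and 4.36 after control siRNA. It too was highest on control replicate 3, and its groups overlapped. Its difference of -0.28 ± 0.18 log2 (SE) was close to that of the brighter one, and without control replicate 3 it was -0.088 log2. Within arrays of the same number both probe sets were lower after Hlxb9 siRNA in 3 of 3 pairs. For the brighter one the paired differences were -0.20, -0.048 and -0.55 log2, with the one of largest size in the pair that holds control replicate 3.

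The granins form the granule core. Chga, encoding chromogranin A, read 13.62, 13.62 and 13.49 log2 after Hlxb9 siRNA, against 13.62, 13.60 and 13.75 after control siRNA. The other 4 arrays lay within 0.027 log2 of one another, with both arrays numbered 3 outside them on opposite sides. The difference of -0.076 ± 0.10 log2 (SE) was smaller than its error (limma adjusted p = 0.857). Without control replicate 3 it was -0.028 log2, and without both arrays numbered 3 its sign turned, at 0.014 log2.

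Chgb, encoding chromogranin B, had the narrowest range of all members, 0.126 log2 over the 6 arrays. It read 13.92, 13.94 and 13.81 log2 after Hlxb9 siRNA, against 13.88, 13.91 and 13.84 after control siRNA. The difference was 0.018 ± 0.097 log2 (SE; limma adjusted p = 0.97), and its 95% interval ran from 0.866- to 1.18-fold. After centring each array on its median the value was -0.035 log2 and without control replicate 3 it was 0.00025 log2, so it had no stable direction.

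Scg2, encoding secretogranin II, the precursor of secretoneurin, read 13.48, 13.42 and 13.49 log2 after Hlxb9 siRNA, against 13.48, 13.47 and 13.67 after control siRNA. Apart from control replicate 3, all arrays lay within 0.072 log2 of one another. The difference of -0.079 ± 0.10 log2 (SE; limma adjusted p = 0.853) was -0.012 log2 without that array.

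Scg3, encoding secretogranin III, which binds cholesterol-rich granule membrane and chromogranin A, read 13.27, 13.25 and 13.16 log2 after Hlxb9 siRNA, against 13.21, 13.18 and 13.12 after control siRNA. It was the only brightest probe set of a member that was higher after Hlxb9 siRNA in 3 of 3 pairs, by 0.064, 0.063 and 0.039 log2. The groups still overlapped, and the difference of 0.055 ± 0.097 log2 (SE) did not pass, either without the pairing (limma adjusted p = 0.892) or with the replicate number as a block (limma adjusted p = 0.893). With control replicate 3 left out it was 0.029 log2.

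Ptprn and Ptprn2 encode IA-2 and phogrin, relatives of receptor tyrosine phosphatases that span the granule membrane and lack ordinary tyrosine phosphatase activity. Ptprn read 11.39, 11.27 and 11.09 log2 after Hlxb9 siRNA, against 11.20, 11.39 and 11.67 after control siRNA. The groups overlapped, and the highest value was again that of control replicate 3. The difference of -0.17 ± 0.15 log2 (SE; limma adjusted p = 0.782) was -0.043 log2 without that array and 0.037 log2 without both arrays numbered 3.

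Ptprn2 read 12.35, 12.28 and 12.39 log2 on its brighter probe set after Hlxb9 siRNA, against 12.09, 12.11 and 12.50 after control siRNA. All 3 Hlxb9 siRNA values lay above control replicates 1 and 2 and below control replicate 3. The difference was 0.11 ± 0.13 log2 (SE) on all arrays (limma adjusted p = 0.842) and 0.24 ± 0.093 log2 without control replicate 3, the only member difference that grew when this array was left out. It did not pass there either (limma adjusted p = 0.506, unadjusted p = 0.0357).

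The dimmer Ptprn2 probe set read 5.57, 5.27 and 5.27 log2 after Hlxb9 siRNA, against 5.29, 5.32 and 4.84 after control siRNA. Here control replicate 3 was the lowest array, whereas on the brighter probe set it was the highest, so the pair of probe sets disagreed on this array. The difference of 0.22 ± 0.16 log2 (SE; limma adjusted p = 0.745) was 0.062 log2 without it.

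**Figure D2:**
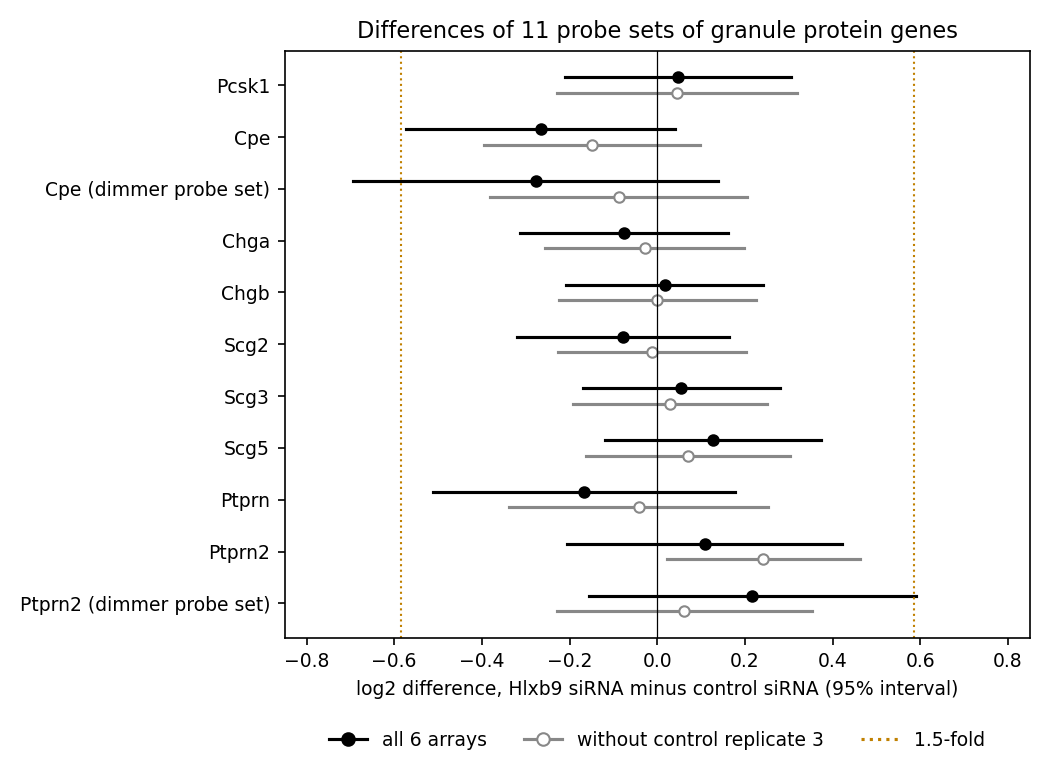
Log2 difference, Hlxb9 siRNA minus control siRNA, with its 95% interval from limma (x axis), for the 11 probe sets of 9 genes on all 6 arrays (black) and without control replicate 3 (grey, open). On all arrays every interval includes 0, and those of the brightest probe sets lie inside the dotted 1.5-fold lines.

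The intervals set a limit on the size of change in signal that these arrays leave room for. For the bright probe sets that signal can understate a difference in transcript level. For the brightest probe set of each gene, all 9 intervals lay between -0.57 and 0.42 log2, inside a 1.5-fold change in either direction. With the replicate block this was so for 8 of the 9, with Cpe reaching -0.59 log2, and after centring for 7 of the 9, with Cpe at -0.66 and Ptprn at -0.59. With the dimmer probe sets added, 9 of the 11 intervals on all arrays lay inside a 1.5-fold change. Those of the dimmer Cpe probe set (down to -0.69 log2) and the dimmer Ptprn2 probe set (up to 0.59) reached beyond it. All 11 intervals lay inside a 2-fold change on all arrays, with the replicate block and after centring. Each interval covers 1 probe set at a time, and a p that misses the threshold does not show equal levels. The standard errors of the 9 had a median of 0.107 log2, against 0.108 for the 1352 genes at least as bright as the dimmest of them and 0.135 for all probe sets.

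Control replicate 3 was often at the edge of the members' values. It was the highest of the 6 arrays for 5 of the 9 genes (Cpe, Chga, Scg2, Ptprn and Ptprn2) and the lowest for 2 (Scg3 and Scg5). Over all probe sets it was the highest for 31.7% and the lowest for 25.6%. Hlxb9 siRNA replicate 3 was the lowest array for 5 of the 9 genes (Pcsk1, Cpe, Chga, Chgb and Ptprn), against 12.9% of all probe sets. The range of Scg2 was 0.254 log2 over the 6 arrays and 0.072 without control replicate 3, whereas those of Pcsk1 and Chgb were set by other arrays. The SD among controls was larger than that among Hlxb9 siRNA arrays for 6 of the 9 genes, against 65.2% of all probe sets. Whether RNA quality had a part in these values was not tested.

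**Figure D3:**
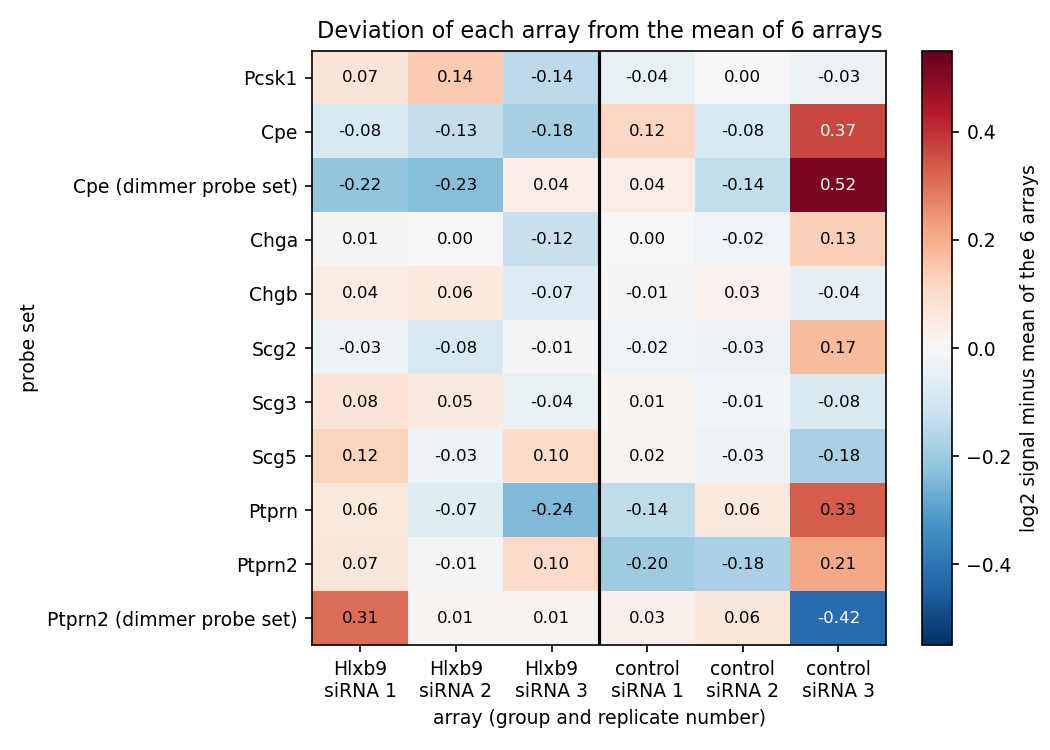
Log2 signal of each array minus the mean of the 6 arrays (colour and printed value) for 11 probe sets (rows) on Hlxb9 siRNA arrays (left) and control siRNA arrays (right). The strongest colours stand in the column of control replicate 3, where the dimmer Cpe probe set is 0.52 above and the dimmer Ptprn2 probe set 0.42 below its mean (-0.42).

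The mean profile of the 9 genes, each centred on its own mean, was 0.037, -0.0079 and -0.068 log2 on the Hlxb9 siRNA arrays and -0.029, -0.031 and 0.099 on the control arrays. The genes whose signals followed it most closely over the 6 arrays were Kcnab2 (r = 0.995), Rnpepl1 (0.993), Stx2 (0.992), Atp13a1 and Srd5a3 (0.990 each) and Zfp511 (0.990). Of 4255 genes compared, 6.27% had r over 0.9. These values describe 6 arrays, and control replicate 3 was the highest point of all 6 genes.

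Other genes of the pathway were read from 5 lists by role, 62 of 64 of them on the array. Of these, 0 passed the adjusted threshold, and at an unadjusted limma p under 0.05 there were 2 higher and 4 lower, 9.68% against 7.62% of all probe sets. In all, 19 had a higher and 43 a lower mean after Hlxb9 siRNA, whereas 49.4% of all genes had a lower one. Without control replicate 3 the list medians moved in both directions, as given for each list below. All 3 Hlxb9 siRNA values lay below all controls for 11 of the 62, against 7.29% of all probe sets, and above all controls for 2, against 8.27%.

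Of 6 other convertases, which cut precursors along the general secretory route, 1 had a higher and 5 a lower mean, and the median was -0.11 log2, or 0.033 log2 without control replicate 3. Furin, the convertase of the Golgi, differed by -0.00083 ± 0.13 log2 (SE), and its direction changed with the array left out. Pcsk6 (PACE4) differed by -0.21 ± 0.12 log2. Mbtps1, the site-1 protease, differed by -0.30 ± 0.24 log2 (2 other probe sets -0.052 and 0.31) and Pcsk4, a convertase of germ cells, by -0.30 ± 0.29. Without control replicate 3 Mbtps1 stood at 0.0016 log2 and Pcsk4 at 0.065, so both values rested on that array. The dim Pcsk5 differed by 0.063 log2, with 4 other probe sets between -0.15 and 0.29, and Pcsk7 by -0.0074 log2 (0.13 without that array).

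Of 12 carboxypeptidases and other trimming enzymes, 5 had a higher and 7 a lower mean, and the median was -0.044 log2 (-0.095 without control replicate 3). Cpd, a carboxypeptidase of the trans-Golgi network with a specificity like that of Cpe, read 10.68, 10.59 and 10.87 log2 after Hlxb9 siRNA, against 11.18, 10.97 and 11.12 after control siRNA. The groups did not overlap, and the difference was -0.38 ± 0.12 log2 (SE; limma adjusted p = 0.645). The 6 other probe sets of Cpd went the opposite way, by 0.12 to 0.50 log2, so no direction can be given for the gene. Cpn1, a subunit of a plasma carboxypeptidase, differed by 0.38 ± 0.15 log2, the membrane carboxypeptidase Cpm by 0.38 ± 0.19, the dim Cpz by -0.37 ± 0.18 and the dim Cpxm1 by -0.17 ± 0.12. With single arrays left out, Cpn1 ranged from 0.23 to 0.52, Cpm from 0.24 to 0.56, Cpz from -0.48 to -0.19 and Cpxm1 from -0.27 to -0.093 log2. A further probe set of Cpn1 differed by 0.093 and one of Cpm by 0.31 log2. Pam, which amidates peptide ends, differed by -0.13 ± 0.11 log2 (-0.20 without control replicate 3).

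Of 19 other cargo and granin-like genes, 6 had a higher and 13 a lower mean, and the median was -0.041 log2 (-0.031 without control replicate 3). Pcsk1n, encoding proSAAS, a precursor that yields an inhibitor of PC1/3, read 9.51, 9.24 and 8.97 log2 after Hlxb9 siRNA, against 9.16, 9.44 and 10.38 after control siRNA. The difference of -0.41 ± 0.30 log2 (SE; limma adjusted p = 0.743) was -0.053 without control replicate 3, and 0.082 without both arrays numbered 3. The neuroendocrine secreted protein gene Vgf differed by -0.094 ± 0.12 log2, and by -0.016 without control replicate 3. Of the peptide genes, Ghrl (ghrelin) differed by -0.45 ± 0.22 log2, Gal (galanin) by -0.32 ± 0.13 and Nts (neurotensin) by 0.33 ± 0.17, all on dim probe sets or near the array median. With single arrays left out, Ghrl ranged from -0.64 to -0.19, with -0.19 the value without control replicate 3, Gal from -0.40 to -0.21 and Nts from 0.20 to 0.48 log2. Pcsk1n, Vgf, Pam and Furin were named after their values were seen.

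Ucn3, encoding urocortin 3, a peptide that mature mouse beta cells release with insulin, read 9.31, 8.85 and 8.14 log2 after Hlxb9 siRNA, against 8.72, 8.30 and 7.52 after control siRNA. The groups overlapped widely, because both arrays numbered 1 were high and both numbered 3 low. Within the pairs Ucn3 was higher after Hlxb9 siRNA by 0.59, 0.54 and 0.62 log2. The difference, 0.59 log2, had an SE of 0.36 without pairing and 0.11 with the replicate block, and did not pass in either fit (limma adjusted p = 0.705 and 0.482). Without control replicate 3, which breaks a pair, it was 0.26 log2. Ppy, encoding pancreatic polypeptide, had the same layout over the arrays with a wider spread. It read 10.95, 10.76 and 8.55 log2 after Hlxb9 siRNA, against 9.86, 9.68 and 7.32 after control siRNA, and was higher by 1.08, 1.08 and 1.23 within the pairs. The difference of 1.13 log2 had an SE of 0.81 without pairing and 0.11 with the replicate block, and did not pass in either fit (limma adjusted p = 0.737 and 0.478). Without control replicate 3, again with a pair broken, it was 0.32 log2.

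Of 17 genes of the granule membrane and of granule biogenesis, 4 had a higher and 13 a lower mean, and the median was -0.091 log2 (-0.056 without control replicate 3). For 5 of the 17 all 3 Hlxb9 siRNA values lay below all controls, against 7.29% of all probe sets. Cltrn, encoding collectrin, read 11.99, 11.95 and 11.94 log2 after Hlxb9 siRNA, against 12.28, 12.09 and 12.35 after control siRNA, and its difference was -0.28 ± 0.11 log2 (SE; limma adjusted p = 0.653). The sorting receptor gene Sort1 differed by -0.25 ± 0.13 log2 (2 other probe sets 0.14 and 0.20), Pick1, a BAR-domain protein of granule budding, by -0.33 ± 0.19 (another 0.16), Hid1, needed for granule maturation, by -0.25 ± 0.15 (another -0.39), and Ccdc186 by -0.15 ± 0.096 (2 others -0.16 and -0.025). Of these, Pick1 and Hid1 were smaller by over 1.5 times without control replicate 3, at -0.14 and -0.12 log2.

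Of 8 regulators known to act on granule protein genes, 3 had a higher and 5 a lower mean, and the median was -0.054 log2 (-0.081 without control replicate 3). Creb1, encoding the factor that binds the element capitalised above, read 10.12, 10.03 and 10.23 log2 after Hlxb9 siRNA, against 9.99, 9.80 and 9.82 after control siRNA. The groups did not overlap, and the difference was 0.26 ± 0.11 log2 (SE; limma adjusted p = 0.653), with 5 other probe sets between 0.0087 and 0.28. The 3 members with the whole element differed by 0.047 (Pcsk1), 0.018 (Chgb) and -0.079 log2 (Scg2). Chga and Scg5, with its first 6 letters only, differed by -0.076 and 0.13 log2. Whether the Creb1 level had a part in these values was not tested. Rcor1, a corepressor that acts with the neuronal gene repressor REST, differed by -0.24 ± 0.10 log2, with 2 others at -0.076 and 0.11. Insm1, a zinc finger factor of endocrine differentiation, differed by -0.40 ± 0.18 log2 (-0.22 without control replicate 3, another probe set -0.18). Neurod1 differed by -0.082 (-0.032 without that array, another -0.26) and Crtc2 by -0.082 log2 (-0.13 without that array, another 0.098).

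**Figure D4:**
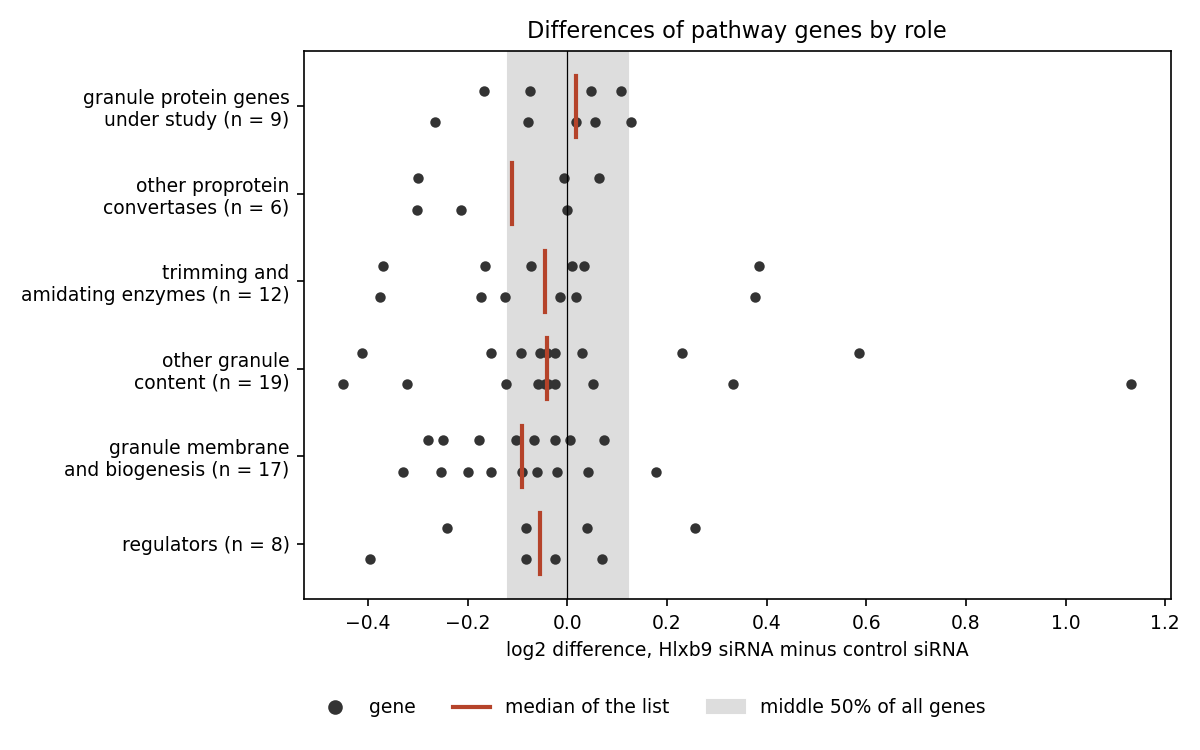
Log2 difference, Hlxb9 siRNA minus control siRNA (x axis), of each gene's brightest probe set, for the 9 granule protein genes and 5 lists of other pathway genes (rows). Red bars are list medians, from -0.11 for other convertases to 0.018 for the 9 genes, and the grey band holds the middle 50% of all genes.

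Markers of beta cells were bright, 7 of 7 measured above the median signal of all probe sets, and the insulin gene Ins2 differed by -0.041 ± 0.092 log2 (SE). Of the 7, 1 had a higher and 6 a lower mean, where 49.4% of all genes had a lower one, and 0 passed the adjusted threshold. For 2, G6pc2 (-0.23 log2) and Pdx1 (-0.11), all Hlxb9 siRNA values lay below all controls, against 7.29% of all probe sets. Summed on the linear scale, the 7 had log2 levels of 15.76 to 15.78 after Hlxb9 siRNA and 15.77 to 15.90 after control siRNA. The 3 measured alpha cell markers summed to 14.54 to 14.57 after Hlxb9 siRNA and 14.57 to 14.63 after control siRNA, and the 3 delta cell markers to 12.57 to 13.50 after Hlxb9 siRNA and 12.94 to 13.31 after control siRNA. The marker of pancreatic polypeptide cells was Ppy alone, at 8.55 to 10.95 after Hlxb9 siRNA and 7.32 to 9.86 after control siRNA, the widest ranges among the 8 marker lists. Exocrine and duct markers, 3 of 5 below the median signal, summed to 11.79 to 11.95 after Hlxb9 siRNA and 11.68 to 11.86 after control siRNA. Of the fibroblast markers 5 of 6 lay below the median signal and of the endothelial markers 4 of 4, with sums of 7.09 to 7.29 and 5.14 to 5.54 after Hlxb9 siRNA, against 7.05 to 7.35 and 5.39 to 5.54 after control siRNA. Of 6 leukocyte markers 5 lay below the median, and their sum was 7.68 to 7.77 after Hlxb9 siRNA, against 7.25 to 7.50 after control siRNA. Cd68, a lysosomal protein of macrophages, was the 1 above it and differed by 0.54 ± 0.13 log2 (SE; limma adjusted p = 0.645). The part of these cell types in the members' values was not tested.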

How the data were processed

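The deposited values are log2 signals of an Affymetrix mouse array, made from 6 ug of total RNA, per the labels' protocols. The submitters' processing notes name RMA and Partek with no version, and the settings are not stated in the sources used here. Leaving out 64 maker's controls, 45037 probe sets remained on 6 arrays. Names came from the platform annotation, updated through Entrez identifiers to RefSeq GRCm38.p6, where 34945 probe sets carry 1 symbol. Each gene was read by its brightest probe set (mean of all arrays).

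The groups were compared with limma 3.58.1 (R 4.3.3; lmFit and eBayes, no covariate, two-sided tests), adjusting p over all probe sets (Benjamini-Hochberg, threshold 0.05). The fit was tested on simulated data. Errors are moderated SE, and intervals are at 95%. The number of arrays limits the precision. Named genes were all members, Mnx1 and, for each wider list, the 5 genes with the smallest unadjusted p. The genes of like pattern had a mean above 5.16, the median of all probe sets, an SD over the arrays of at least 0.2, and the highest Pearson r with the members' mean profile. Deviations from the group means correlated between arrays of equal number (r of 0.155, 0.165 and 0.202), so differences within arrays of equal number are also given. This pairing comes from the values, not the labels. Alternatives were the replicate block, each array left out, centring, repeated quantile normalization, an offset of 32, dim probe sets left out, a variance trend, array weights, an adjusted p of 0.1 and averaging the probe sets of each gene. Leaving out both arrays numbered 3 was added after seeing the data. The members and lists were chosen with earlier results of these data known.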

Additional observations from a re-analysis of the deposited data

How the results depend on the processing

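No member probe set passed under any alternative, array weights and an adjusted p of 0.1 included. Across all probe sets the count of calls was 0 in each alternative except array weights, which called 1132 (2.51%), with weights of 4.46 and 2.91 on control and Hlxb9 siRNA replicate 2 and 0.204 on control replicate 3. The smallest adjusted p among the members was 0.177 with these weights (Ptprn2) and 0.548 with the replicate block (the dimmer Cpe probe set, difference -0.28 log2), and the block changed no call. Some alternatives, such as the replicate block and the variance trend, leave the difference itself as it is by construction. Of 123 comparisons in which an alternative moved a member value, 117 kept their direction and 6 turned. Centring turned Pcsk1 to -0.0049 and Chgb to -0.035 log2, and leaving out both arrays numbered 3 turned Chga to 0.014 and Ptprn to 0.037. With single arrays left out, Pcsk1 ranged from -0.012 to 0.13, Chgb from -0.0057 to 0.057, Cpe from -0.37 to -0.15 and Ptprn2 from 0.037 to 0.24 log2. Among the other named genes, these ranges were -0.48 to 0.0016 for Mbtps1, -0.54 to 0.065 for Pcsk4, -0.13 to 0.13 for Pcsk7 and -0.096 to 0.10 for Furin. Array weights gave 0.035 for Mbtps1 and 0.26 for Pcsk7, and leaving out both arrays numbered 3 gave 0.021 for Mbtps1, 0.050 for Pcsk4, 0.17 for Pcsk7, 0.082 for Pcsk1n and 0.019 for Vgf. Averaging all probe sets per gene turned Cpd to 0.25, Crtc2 to 0.0079 and Sort1 to 0.026 log2. The cause was not tested. Centring shifted the median of all probe sets to -0.048 log2, and at an unadjusted p under 0.05 it gave 963 higher and 2346 lower probe sets, against 1738 and 1692 without it.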
